A study of Mus musculus with 36 samples.

Results

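Described here are 10 genes of the major histocompatibility complex (MHC) class I pathway in fetal mouse germ cells and gonads, in control fetuses and after intrauterine hyperglycemia (IUHG). The genes were the classical heavy chains *H2-D1* and *H2-K1*, their partner *B2m*, the non-classical heavy chain *H2-T23*, the peptide transporter and loading genes *Tap1*, *Tap2* and *Tapbp*, the regulator *Nlrc5*, and the immunoproteasome subunits *Psmb8* and *Psmb9*. They were taken by gene symbol from 57126 gene IDs of the PGC (primordial germ cell) files and 56262 of the gonad files, and all 10 were listed in both. The members were selected on measured values, since the set was drawn up with the low TPM of *H2-D1* in IUHG E13.5 female PGCs already known. Values of that comparison are therefore a description without a test, and *H2-D1* has no p in any comparison that uses those libraries.

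RNA-seq covered 36 libraries in 12 groups of 3. Control and IUHG groups were female gonads at E13.5 (6 libraries) and PGCs at E12.5, for which the labels give no sex, and male and female PGCs at E13.5 and at E16.5 (30 libraries). Dams of the IUHG groups received streptozotocin (STZ), a drug toxic to pancreatic β-cells, at day 3.5 of pregnancy (120 mg/kg) and had blood glucose above 14 mM on day 6.5. All labels give the genotype as WT. Gonads came from ICR mice, an outbred stock, with several pairs pooled per sample. PGCs were sorted from pooled fetuses of Oct4-EGFP sires as EGFP-positive cells, so the transgene marks cells in which the Oct4 (*Pou5f1*) promoter is active. In that sort *Pou5f1* itself was at 112 TPM (transcript abundance scaled by transcript length and library total) in control E13.5 female PGCs, 179 in E16.5 male PGCs and 8.18 in E16.5 female PGCs. STZ and the raised glucose cannot be told apart in these groups, because animals given STZ without hyperglycemia were not analysed here.

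MHC class I molecules carry short peptides from inside the cell to its surface, where CD8 T cells and natural killer cells read them. Each molecule is a heavy chain bound to β2-microglobulin, the product of *B2m*. Peptides are cut by the proteasome, in immune cells with the inducible subunits *Psmb8* and *Psmb9*, pumped into the endoplasmic reticulum by the Tap1-Tap2 transporter, and placed on the heavy chain with the help of tapasin (*Tapbp*). *Nlrc5* is the main transactivator of class I genes, and interferons raise the whole pathway in part through interferon regulatory factors (IRFs). Germ cells and early embryos are known for low class I levels.

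Sequences upstream of the start sites are shown for *H2-D1*, *H2-K1* and *B2m*, which were all higher in control E13.5 female than in E12.5 PGCs, and for *Tapbp*, which was lower there. They are 300 bases each, 250 before and 50 after the start in RefSeq on GRCm38.p6, a build other than that of the PGC files. Capitals mark letters of 3 motifs searched on both strands, namely AANNGAAA (an IRF element), GGGATTCCC (a κB element) and the pair TGACG and ATTGG with 15 to 25 bases between them (the ends of the X2 and Y boxes).
H2-D1, chr17:35262844-35263143, plus strand: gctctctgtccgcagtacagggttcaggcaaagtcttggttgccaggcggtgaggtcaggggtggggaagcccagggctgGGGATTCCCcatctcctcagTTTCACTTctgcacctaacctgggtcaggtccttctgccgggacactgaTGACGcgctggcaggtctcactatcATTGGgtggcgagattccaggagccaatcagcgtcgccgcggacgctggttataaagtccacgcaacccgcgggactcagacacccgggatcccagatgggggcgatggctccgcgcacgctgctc
H2-K1, chr17:34000298-34000597, minus strand: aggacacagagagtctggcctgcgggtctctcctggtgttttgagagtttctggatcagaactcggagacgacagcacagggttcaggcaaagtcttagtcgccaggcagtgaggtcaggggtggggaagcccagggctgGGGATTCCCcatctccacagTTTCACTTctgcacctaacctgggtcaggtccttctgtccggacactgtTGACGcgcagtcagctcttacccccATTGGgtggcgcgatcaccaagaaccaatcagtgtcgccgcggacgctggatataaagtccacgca
B2m, chr2:122147437-122147736, plus strand: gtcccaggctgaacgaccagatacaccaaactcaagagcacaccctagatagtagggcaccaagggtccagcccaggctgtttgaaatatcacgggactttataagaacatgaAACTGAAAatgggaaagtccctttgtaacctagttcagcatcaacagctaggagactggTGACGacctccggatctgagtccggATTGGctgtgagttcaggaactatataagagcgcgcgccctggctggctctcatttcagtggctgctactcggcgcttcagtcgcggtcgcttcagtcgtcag
Tapbp, chr17:33919228-33919527, plus strand: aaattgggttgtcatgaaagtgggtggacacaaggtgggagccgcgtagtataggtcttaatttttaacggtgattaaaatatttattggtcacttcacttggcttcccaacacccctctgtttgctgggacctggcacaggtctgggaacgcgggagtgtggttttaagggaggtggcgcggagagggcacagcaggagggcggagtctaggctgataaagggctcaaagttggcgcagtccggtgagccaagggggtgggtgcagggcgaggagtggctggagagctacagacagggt

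The windows of *H2-D1* and *H2-K1* held all 3 motifs in the same order. In *H2-D1* the κB letters lay at -170 to -162 from the start, the IRF letters at -150 to -143 and the pair at -101 to -72. In *H2-K1* they lay at -110 to -102, -90 to -83 and -41 to -12. With a shift of 60 bases, 176 of 240 aligned bases of both windows were identical (73.3%). *B2m* held the IRF letters at -137 to -130 and the pair at -78 to -49, and no κB letters. In each of these 3 genes the pair spanned 30 bases. The *H2-T23* window held the IRF letters at 2 places, and those of *Tap1*, *Tapbp*, *Psmb8* and *Psmb9* held neither the IRF letters, the κB letters nor the pair. Over 27025 RefSeq promoter windows of this length, 24.2% held the IRF letters, 0.37% the κB letters and 0.463% the pair. Single TGACG and ATTGG letters were common, in 21% and 37.9% of windows. Such a match is a description of letters only. Windows were found for 8 of the 10 genes.

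Aligned bases per library spanned 3.89 to 4.95 gigabases for the gonads and 3.25 to 8.32 gigabases for the PGCs. The files hold no read counts, so counting error per gene is unknown. Libraries of a group correlated across genes at r = 0.935 to 0.993, and no library was a copy of another. The 10 germ cell markers summed to 2629 to 9940 TPM in PGC libraries. Y-linked *Eif2s3y* was listed at 0 in all 12 female PGC libraries and averaged 192 TPM in control and 133 TPM in IUHG E12.5 PGCs, so the E12.5 pools held male cells. One library labelled female gonad, control 1, carried *Eif2s3y* at 27.5 TPM and a Sertoli marker sum of 460 TPM against 55.0 and 60.8 in the other controls, so gonad values are given with and without it. The 19 blood and immune markers summed to 6.74 to 827 TPM over the PGC libraries, and group means reached 178 TPM for *Hba-a1* and 168 TPM for *Fcer1g* but at most 0.423 TPM for the pan-leukocyte marker *Ptprc*. In bulk libraries, fewer cells of a type and less RNA per cell cannot be told apart.

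*H2-D1*, *H2-K1* and *B2m* were low in control E12.5 PGCs, far higher in female PGCs at E13.5, and still low in male PGCs at E13.5 with a rise by E16.5. *H2-D1* (ENSMUSG00000073411.13, chromosome 17, 35481706 to 35486475 as the PGC files list it, mm39 by the methods) was at 2.08, 2.85 and 1.31 TPM in control E12.5 PGCs. In control E13.5 female PGCs it was at 113, 110 and 118 TPM, and at E16.5 at 646, 661 and 760 TPM. These groups did not overlap at either step, with ratios of means of 54.6 from E12.5 PGCs to E13.5 females and 6.07 from E13.5 to E16.5 females. The E12.5 pools held male cells, so the first step mixes stage with sex, for this gene and those below. In control male PGCs *H2-D1* was at 1.55, 1.73 and 0.622 TPM at E13.5, which overlapped E12.5, and at 68.3, 65.3 and 70.2 TPM at E16.5. The male rise was 52.2-fold (log2 fold change 4.94, SE 0.188, limma adjusted p = 8.49e-08).

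*H2-K1* (ENSMUSG00000061232.17, chromosome 17, 34214991 to 34219321) followed the same order in females and reached far less in males. It stood at 4.38, 3.93 and 4.70 TPM in control E12.5 PGCs, at 141, 132 and 135 TPM in E13.5 female PGCs, and at 381, 365 and 438 TPM in E16.5 female PGCs. The first step was 31.4-fold (log2 4.68, SE 0.123, limma adjusted p = 6.91e-09) and the second 2.90-fold (log2 1.53, SE 0.0996, limma adjusted p = 2.28e-06). In male PGCs it moved from 5.55, 5.09 and 3.35 TPM at E13.5 to 14.6, 18.4 and 14.5 TPM at E16.5, a 3.40-fold rise (log2 1.59, SE 0.176, limma adjusted p = 4.49e-05). At E16.5 female PGCs therefore held 24.9 times the *H2-K1* of male PGCs (limma adjusted p = 1.73e-07) and 10.1 times the *H2-D1* (limma adjusted p = 1.27e-07).

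*B2m* (ENSMUSG00000060802.9, chromosome 2, 121978167 to 121983564) rose with the heavy chains at E13.5 in females but not after. Control values were 8.81, 11.9 and 6.52 TPM in E12.5 PGCs, 86.6, 82.5 and 77.2 TPM in E13.5 female PGCs and 77.6, 79.4 and 89.6 TPM in E16.5 female PGCs. The first step measured 3.08 on the log2 scale (SE 0.184, limma adjusted p = 9.75e-07). The second measured 0.00 on TPM and -0.26 with median-of-ratios scaling. In male PGCs *B2m* was at 14.9, 19.6 and 15.1 TPM at E13.5, above all E12.5 libraries (log2 fold change 0.83, limma adjusted p = 0.00378, short of the fold threshold). At E16.5 it was at 150, 127 and 123 TPM, 8.07 times the E13.5 level (limma adjusted p = 1.21e-07) and 1.62 times the E16.5 female level (log2 0.69, limma adjusted p = 5.97e-04). At E16.5, then, male PGCs had more *B2m* than female PGCs and less of both classical heavy chains.

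**Figure D1:**
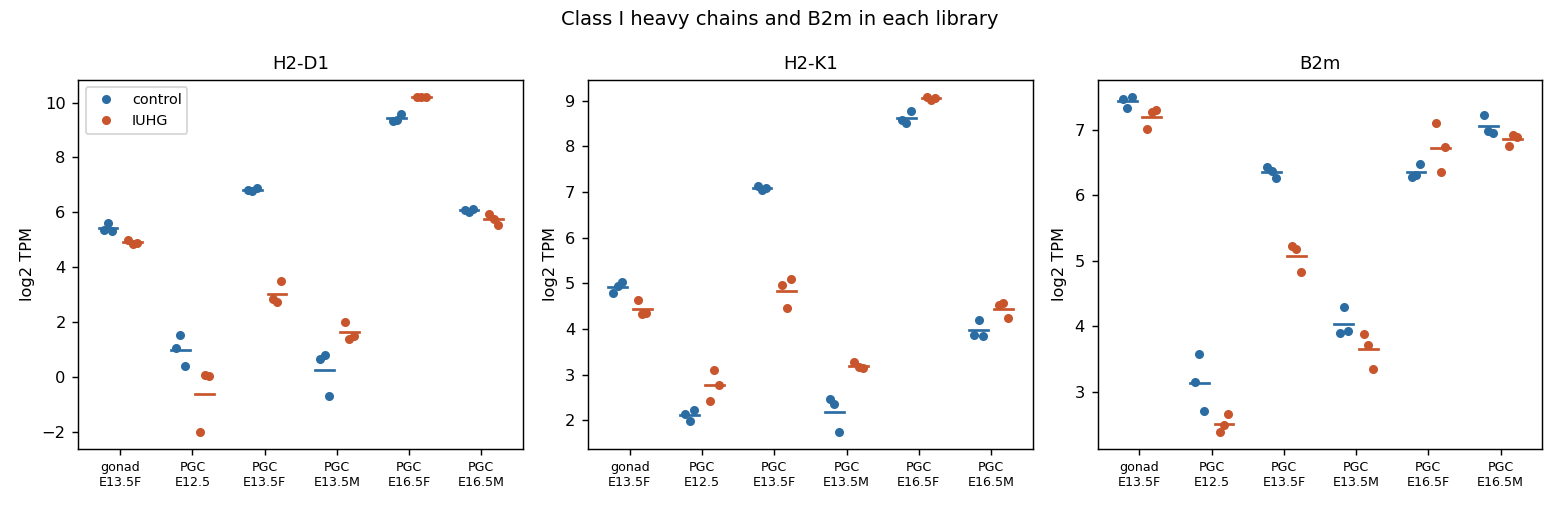
Levels of H2-D1, H2-K1 and B2m as log2 TPM in each library (points) with the mean of the log2 values (bars), for gonads and PGC groups, controls in blue and IUHG in orange. The 3 E13.5 female control libraries of H2-D1 lie between 110 and 118 TPM and the 3 IUHG libraries between 6.69 and 11.3 TPM, while at E16.5 the IUHG female libraries lie above their controls.

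*Tapbp* (ENSMUSG00000024308.16), which bridges the heavy chain and the transporter, had the opposite course. It was at 43.8 ± 2.03 TPM (SD, n = 3) in control E12.5 PGCs, 48.8 ± 4.48 in E13.5 male PGCs and 34.3 ± 2.55 in E16.5 male PGCs. In female PGCs it was at 13.9, 8.23 and 13.2 TPM at E13.5 and at 12.2, 15.3 and 12.0 TPM at E16.5. The fall from E12.5 to E13.5 females came to -1.84 on the log2 scale (limma adjusted p = 2.42e-05), and males held 4.14 times the female level at E13.5 (limma adjusted p = 1.68e-05) and 2.61 times at E16.5 (limma adjusted p = 8.15e-05). Its correlation with *H2-K1* over the 30 PGC libraries was r = -0.87 and with *H2-D1* r = -0.73. These libraries share stages and sexes, so both values are descriptions.

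The transporter genes *Tap1* (ENSMUSG00000037321.18) and *Tap2* (ENSMUSG00000024339.13), which neighbour *Psmb8* and *Psmb9* on chromosome 17, were low throughout. *Tap1* was at 4.47, 3.67 and 4.51 TPM in control E13.5 female PGCs and at 6.13, 7.13 and 4.55 TPM in control E16.5 male PGCs. In control E16.5 female PGCs it spread over 0.0831, 1.22 and 2.93 TPM, and in E12.5 and E13.5 male PGC libraries of both conditions it stayed at or below 0.664 TPM. *Tap2* reached 5.21, 5.40 and 6.52 TPM in control E16.5 male PGCs. Elsewhere in control PGCs its group means were at or below 0.377 TPM, so in E13.5 female PGCs one subunit of the transporter was listed near 0 while the other was not.

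The immunoproteasome subunits were a small addition to the constitutive ones they replace. *Psmb9* (ENSMUSG00000096727.4) was at 4.76, 5.13 and 4.77 TPM in control E13.5 female PGCs and at 5.87, 7.41 and 6.73 TPM in control E16.5 male PGCs, against group means of 0.312 TPM at E12.5 and 0.896 TPM in E13.5 males. Its constitutive counterpart *Psmb6* had group means from 1212 to 5140 TPM, and *Psmb9* came to at most 0.250% of *Psmb6* in any PGC group. *Psmb8* (ENSMUSG00000024338.16) was at 4.51, 2.32 and 1.87 TPM in control E16.5 male PGCs and listed at 0 in all 6 E13.5 female libraries. Its counterpart *Psmb5* had group means from 197 to 773 TPM, and *Psmb8* came to at most 0.707% of it. TPM is scaled by transcript length, so these levels can be set side by side.

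*Nlrc5* (ENSMUSG00000074151.15) was above 1 TPM at 1 stage and sex. Control E16.5 male PGCs had 2.69, 1.77 and 1.94 TPM and IUHG E16.5 male PGCs 2.37, 2.16 and 1.53 TPM. Every other PGC library was at or below 0.147 TPM, and every gonad library at or below 0.110 TPM. The female PGCs with the highest *H2-D1* and *H2-K1* were thus among the libraries with *Nlrc5* near 0. *H2-T23* (ENSMUSG00000067212.9), which presents leader peptides of other class I chains, had control PGC group means from 0.769 to 1.30 TPM and passed no test of stage or sex.

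**Figure D2:**
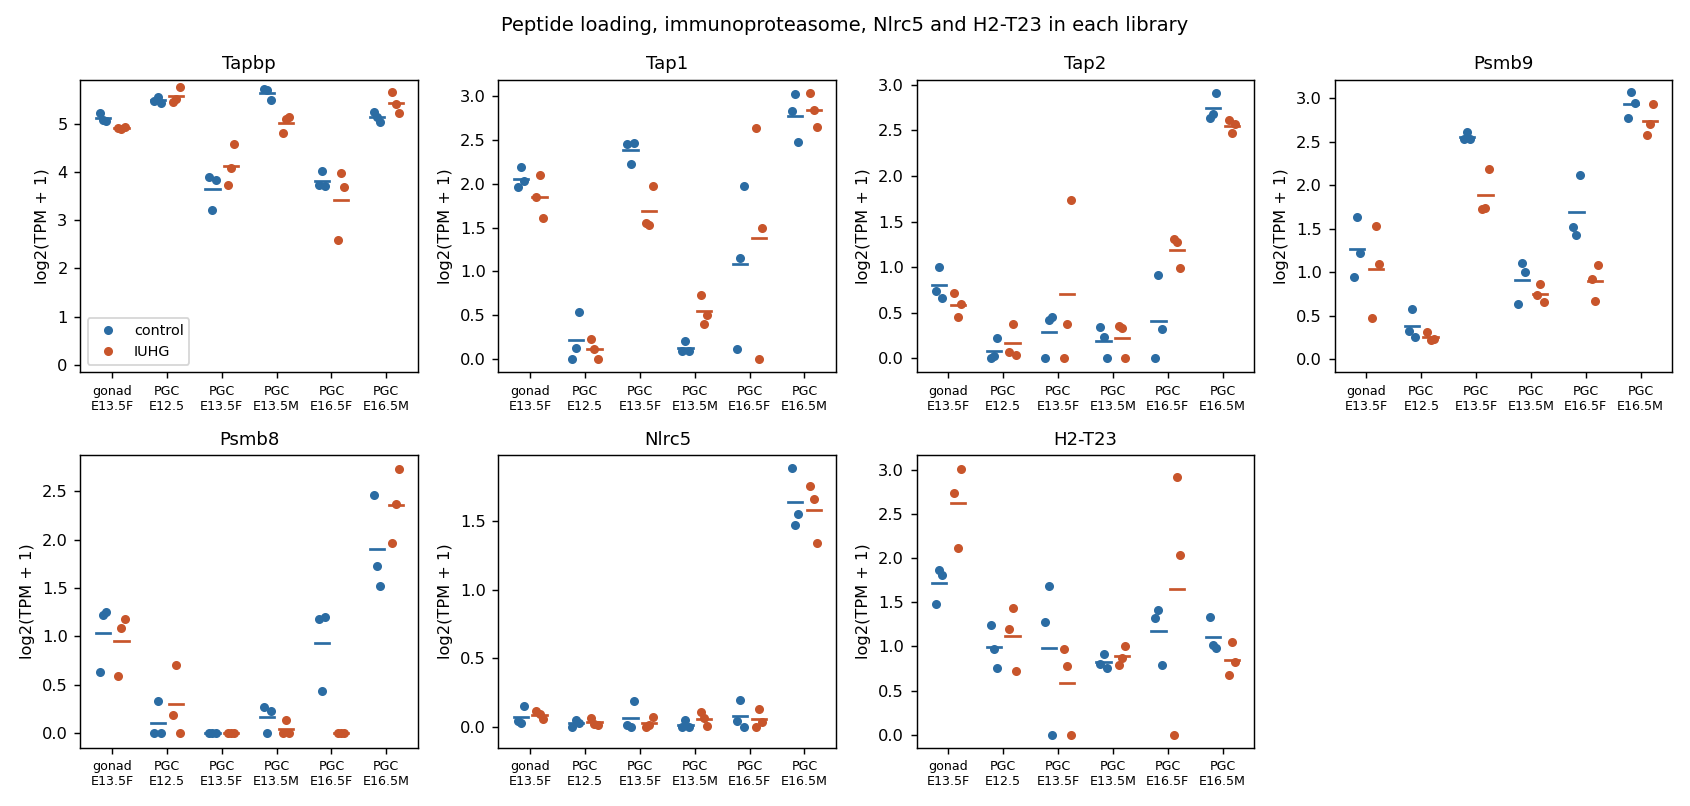
Levels of the other 7 genes as log2(TPM + 1) in each library (points) with the mean of these values (bars), for gonads and PGC groups, controls in blue and IUHG in orange. Tap2, Psmb8 and Nlrc5 stand highest in E16.5 male PGCs, whereas Tapbp is lowest in the female PGC groups.

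Ranked by group mean over the 10 PGC groups, *H2-D1* ran from IUHG E16.5 females (1170 to 1194 TPM) through control E16.5 females, control E13.5 females, control and IUHG E16.5 males and IUHG E13.5 females (8.36 ± 2.57) down to IUHG E12.5 (0.773 ± 0.454). Neighbouring groups did not overlap in the upper 6 ranks, while the 4 lowest groups, the E12.5 and E13.5 male groups, overlapped their neighbours. For *H2-K1* the 3 highest groups were the same, and IUHG E13.5 females (29.2 ± 6.34) overlapped IUHG E16.5 males (21.9 ± 2.60). *B2m* had a different order. Its top 5 groups, both E16.5 male groups, both E16.5 female groups and control E13.5 females, lay between 133 and 82.1 TPM, and the second, the third and the fourth each overlapped the next.

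Counting members against the thresholds of the PGC comparisons (limma adjusted p under 0.01 and a log2 fold change beyond 1) sets these moves beside all genes. A gene entered a comparison when either group had a mean of 1 TPM or more, so a gene that entered through its high group alone had to differ, and such counts are given as descriptions. From E12.5 to E13.5 females, 7 members entered, *Tap1* and *Psmb9* through the females alone. Past the thresholds, *H2-K1*, *B2m*, *Tap1* and *Psmb9* were higher (18.5% of 15383 genes were), and 1, *Tapbp*, was lower (6.87%). *H2-D1*, also higher, has no p there and is not counted. From E12.5 to E13.5 males, 5 were tested and 0 were past the thresholds, where 8.95% of all genes were higher and 7.26% lower. At an unadjusted p under 0.05 the count there was 1, *B2m*, where 9474 of 14531 genes passed. From E13.5 to E16.5 females, 7 entered and *H2-K1* was past the thresholds as higher (18.4% of genes higher, 9.78% lower). *H2-D1*, also higher, has no p there and is not counted. In males 8 of 10 were higher, all but *Tapbp* and *H2-T23* (38.3% higher, 12.7% lower). Of the 10, 6 entered through E16.5 alone, *H2-T23*, *Tap1*, *Tap2*, *Nlrc5*, *Psmb8* and *Psmb9*, so for these the direction was set by the filter.

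Between control sexes at E13.5, 7 members entered. Past the thresholds, males were lower in *H2-K1*, *B2m*, *Tap1* and *Psmb9* (20.4% of genes lower), and higher in *Tapbp* (9.35% higher). *H2-D1*, also lower in males, has no p there and is not counted, and *Tap1*, *Psmb9* and *H2-T23* entered through the females alone. *H2-D1* was 87.3 times and *H2-K1* 29.2 times higher in females (*H2-K1* log2 fold change of males over females -4.62, SE 0.155, limma adjusted p = 6.38e-08). At E16.5 the pattern had split. Males were lower in *H2-D1* and *H2-K1* (22.9% of genes lower) and higher in 5, *Tap1*, *Tap2*, *Tapbp*, *Nlrc5* and *Psmb9* (28% higher), and *Tap2*, *Nlrc5* and *Psmb8* entered through the males alone. *Tap1*, with a limma adjusted p of 0.00987, lost its call without a filter, with a pseudocount of 0.1 and on leaving out any 1 of 5 of the 6 libraries. *Nlrc5* lost its call on FPKM (log2 0.97), and *Psmb9* without a filter or without male control 2 or 3. Scaling moved the median of all genes by more than 0.1 in these comparisons.

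Under median-of-ratios scaling the median log2 change of all genes was 0.03 in place of 0.27 (E12.5 to E13.5 females), 0.09 for 0.31 (E13.5 to E16.5 females), 0.33 for 0.62 (the same in males), 0.00 for -0.28 (males over females at E13.5) and 0.33 for 0.11 (at E16.5). The share of calls that were higher moved in the direction of this shift in all 5 comparisons, in the same order from 73.0% to 53.5%, from 65.3% to 51.2%, from 75.1% to 62.8%, from 31.4% to 50.9% and from 55.0% to 63.1%. Relative to the median of all genes, the *H2-D1* difference was 4.98 from E12.5 to E13.5 females, 2.27 from E13.5 to E16.5 females and 4.33 at the later male step. No member that passed a threshold turned direction.

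Some other genes of antigen presentation rose at the same steps in control PGCs. Of 26 further heavy chain genes, 9 were tested from E12.5 to E13.5 females and 5 were higher (18.5% of all genes were). Of the 9, 6 entered through the females alone, so little can be read from that count. *H2-Q10* went from 2.22 to 16.4 TPM (log2 2.46) and *H2-Q2* from 0.184 to 4.35 TPM (2.18) and on to 22.3 TPM at E16.5 (2.13). *H2-M3*, a non-classical chain, went from 2.01 to 22.2 TPM in males between E13.5 and E16.5 (2.95). The class II list holds genes that present extracellular peptides in immune cells. It had 4 of 5 tested genes higher from E12.5 to E13.5 females (18.5% of all genes) and 8 of 8 in males from E13.5 to E16.5 (38.3%). All 5 of the first and 6 of the 8 entered through the later stage alone, so the direction of these counts was largely set by the filter. *H2-Ab1*, a class II β chain, went from 0.213 TPM at E12.5 to 28.7 TPM in E13.5 and 119 TPM in E16.5 females, and in males from 0.185 to 37.4 TPM. It entered the first step and the male step through the later stage alone, so there its direction was set by the filter. Its limma adjusted p between E13.5 and E16.5 females was 6.45e-06.

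Markers of other cells moved with the E16.5 male values. The sum of the 19 blood and immune markers was 533 to 827 TPM in control E16.5 male PGCs against 28.5 to 108 TPM in E13.5 male PGCs, with 6 markers below a mean of 1 TPM. The globin gene *Hba-a1* at 178 TPM and *Fcer1g* at 168 TPM led, while the leukocyte and macrophage markers *Ptprc* and *Lyz2* were at 0.222 and 0.211 TPM. The 10 endothelial markers summed to 275 to 293 TPM, with *Egfl7* at 244 TPM, against 77.1 to 78.3 TPM. In control female PGCs the blood and immune sum was 19.1 to 82.3 TPM at E13.5 and 54.3 to 179 TPM at E16.5. It was 8.91 to 13.7 TPM in control E12.5 PGCs, whose labels give no sex. The part of such cells in the class I and class II values was not tested.

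Lists of interferon genes had mixed courses over control E12.5 PGCs and the control female PGCs of later stages. *Irf1*, an IRF known to act on class I promoters, was at 54.4, 50.5 and 60.5 TPM at E12.5 and at 53.0, 37.1 and 42.9 TPM in E13.5 females, and the groups overlapped (log2 fold change -0.32, limma adjusted p = 0.0789). It fell between E13.5 and E16.5 from 44.3 to 8.66 TPM in females (log2 fold change -2.28, limma adjusted p = 8.16e-05) and from 86.7 to 18.6 TPM in males (-2.16, limma adjusted p = 1.25e-07). Among 31 interferon-stimulated genes, 0 of 12 tested were higher and 1 lower from E12.5 to E13.5 females, a median of -0.29 against 0.27 for all genes. At that step 18.5% of all genes were higher and 6.87% lower. Of the interferon receptors and signalling genes, 4 of 12 were higher there and 0 lower, with a median of 0.54, and 1 of the 12 entered through the females alone. *Ifnar1*, a subunit of the type I interferon receptor, went from 16.9 to 51.4 TPM (log2 1.55, limma adjusted p = 3.93e-05) and *Ifngr1*, a subunit of the interferon γ receptor, from 12.8 to 30.1 TPM (1.17, limma adjusted p = 1.36e-04). From E13.5 to E16.5 females 0 of 14 interferon-stimulated genes were higher and 6 lower, where 18.4% of all genes were higher and 9.78% lower, and of the 14 genes 4 entered through E13.5 alone and 2 through E16.5 alone. *Ifitm3*, also a germ cell gene, went from 544 to 11.5 TPM there. The proteasome activator genes *Psme1* and *Psme2* fell from 479 to 43.7 TPM and from 466 to 42.3 TPM in E16.5 females (log2 fold changes -3.42 and -3.44).

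**Figure D3:**
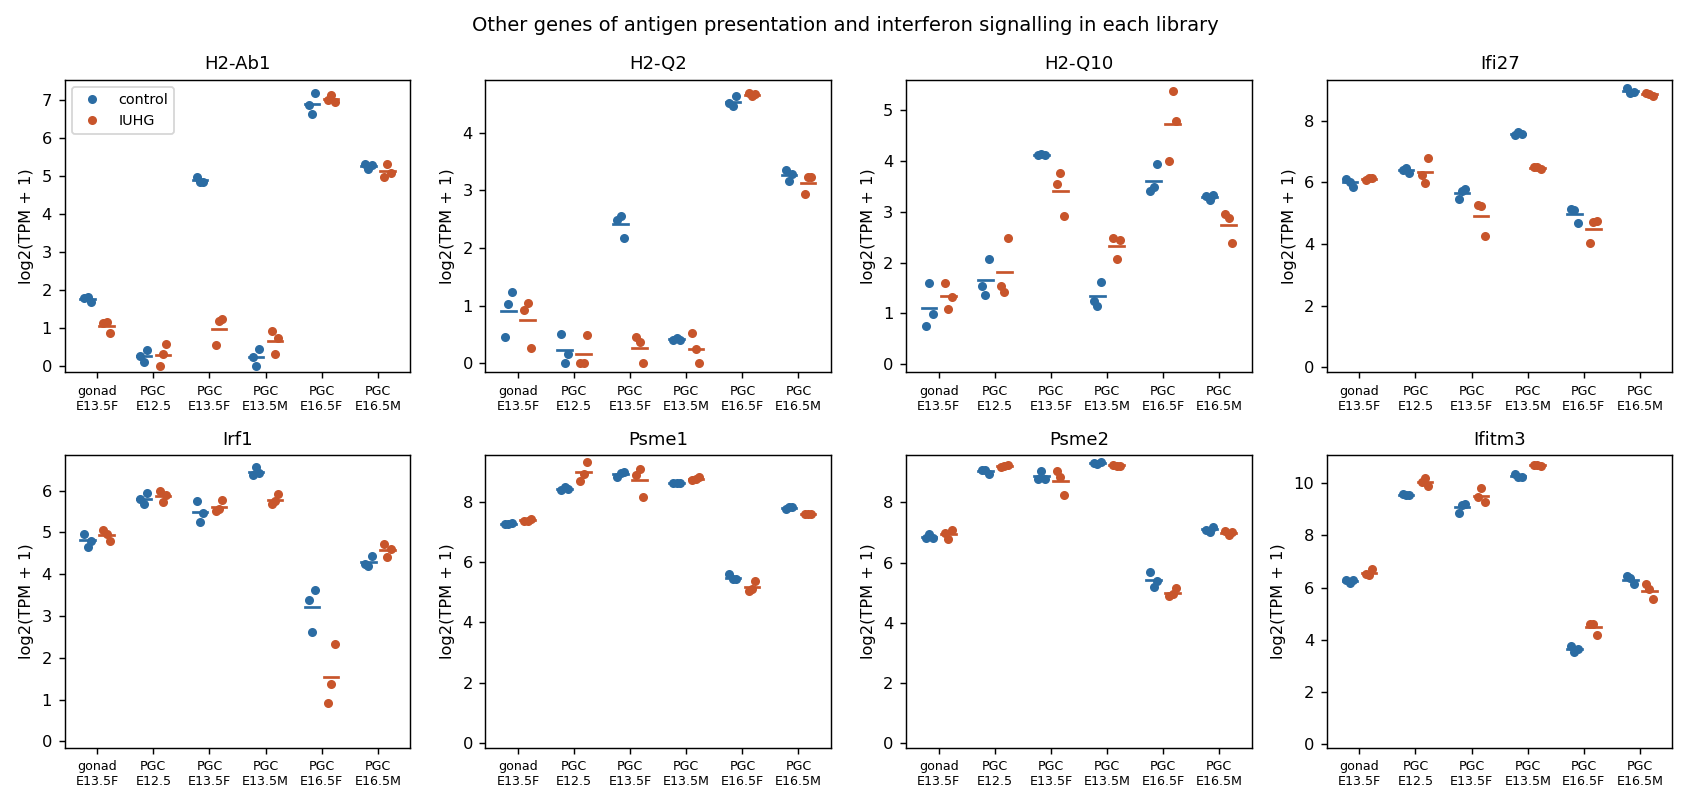
Levels of 8 genes of antigen presentation and interferon signalling as log2(TPM + 1) in each library (points) with the mean of these values (bars), controls in blue and IUHG in orange. H2-Ab1 and H2-Q2 are low in IUHG E13.5 female PGCs, at 1.03 and 0.220 TPM on average, while Psme1 and Psme2 are high in that group and low in E16.5 females.

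In E13.5 female PGCs, the comparison that led to the set, the heavy chains and *B2m* were far lower after IUHG. *H2-D1* was at 7.07, 6.69 and 11.3 TPM in IUHG libraries against 113, 110 and 118 TPM in controls, 13.6 times lower by the means. *H2-K1* was at 31.0, 22.1 and 34.4 TPM against 141, 132 and 135 TPM, 4.67 times lower. *B2m* was at 37.4, 36.2 and 28.4 TPM against 86.6, 82.5 and 77.2 TPM, 2.41 times lower. On the log2(TPM + 1) scale the differences were -3.65 (SE 0.238), -2.21 (SE 0.211) and -1.25 (SE 0.195). The *H2-D1* value ran from -3.86 to -3.52 on leaving out each library. All 3 genes stayed above control E12.5 PGCs in every IUHG library.

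*Tap1* was at 1.93, 1.89 and 2.93 TPM against 4.47, 3.67 and 4.51 TPM (log2 -0.69), and *Psmb9* at 2.31, 2.32 and 3.56 TPM against 4.76, 5.13 and 4.77 TPM (log2 -0.67). In both genes the groups did not overlap. *Tapbp* was at 12.2, 15.9 and 22.7 TPM and overlapped its controls (log2 0.48), as did *H2-T23*, with 1 library of each group at 0 (log2 -0.40). *Tap2*, *Nlrc5* and *Psmb8* were below a mean of 1 TPM in both groups. Thus 5 of the 7 members above that level were lower without overlap. Of all 16539 genes, 33% had groups that did not overlap, 5452 in number, and nothing is read from the members' share, since the comparison chose the set. The median of all genes was 0.14 on TPM and 0.00 with median-of-ratios scaling, under which *H2-D1* was at -3.80.

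Beyond the members, 6 of 10 further heavy chains were lower without overlap and 0 higher, and 4 of the 10 entered through the controls alone and 1 through IUHG alone. *H2-Q10* was at 9.92 against 16.4 TPM (log2 -0.71) and *H2-Bl* differed by -1.47. Of 5 class II genes, 3 entered through the controls alone and had to be lower. Of the other two, *H2-Ab1* was at 0.470, 1.28 and 1.35 TPM against 30.4, 27.9 and 27.8 TPM (log2 -3.90) and *H2-DMa* differed by -1.01. Of 12 interferon-stimulated genes, 3 were higher without overlap, among them *Ifitm3* (0.45) and *Trim25* (0.73), and 2 lower, among them *Ifi27* (-0.74), with a median of 0.20, and these 5 of 12 lie near the 33% of all genes without overlap. The receptor genes *Ifnar1* and *Ifngr1* were lower (-1.01 and -0.61), and 4 of 12 genes of that list were lower and 1 higher without overlap, again near that 33%. Factors of class I promoters had 7 of 14 higher and 1 lower and a median of 0.47, for example *Nfyb* (1.11) and *Nfkb1* (1.05), genes for subunits of NF-Y and NF-κB. *Irf1*, added after its values were seen, overlapped (48.2 ± 4.89 against 44.3 ± 8.04 TPM).

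The blood and immune marker sum was 19.1 to 82.3 TPM in control and 17.8 to 85.2 TPM in IUHG E13.5 female PGCs, so the ranges overlapped nearly fully, with 8 of 19 markers below a mean of 1 TPM in each. The endothelial sum was 110 to 239 TPM against 76.0 to 101 TPM, and the Sertoli sum 178 to 231 against 133 to 141 TPM. These sums rest on few genes. Below a mean of 1 TPM were 7 of 10 endothelial markers in each group, and of 8 Sertoli markers 6 after IUHG and 4 in controls. Of 4 Sertoli markers above that level in either group, 2 were higher and 2 lower, with a median of -0.36. *Mael* was lower (-1.06) and *Tfap2c* and *Prdm1* higher (1.91 and 1.08) in IUHG E13.5 female PGCs. The part of these shifts in the class I values was not tested. The tested genes nearest to the heavy chains differed in both directions. Around *H2-D1*, *Ddx39b*, 21.0 kb away, differed by 0.42 and *Nfkbil1*, 42.6 kb away, by 0.65. The other 4 were lower, *Atp6v1g2*, 27.6 kb away, by -0.85, and on the far side *H2-Q1* by -0.70, *Gm8741* by -1.21 and *H2-Q2* by -2.14, at 57.8, 73.2 and 79.5 kb. *H2-Q1* and *H2-Q2* are themselves heavy chains. Around *H2-K1*, *Vps52* differed by 0.09, *Ring1* by 0.46 and *Gm20427* by -0.10, whereas *Hsd17b8* differed by -1.20 and *H2-K2*, listed under a pair of gene IDs, by -1.15 and -1.27.

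In E13.5 male PGCs both classical heavy chains were higher after IUHG, short of the fold threshold, and *H2-D1* also missed the limit for the adjusted p. *H2-D1* was at 3.99, 2.63 and 2.81 TPM after IUHG against 1.55, 1.73 and 0.622 TPM (log2 0.87, SE 0.223, limma adjusted p = 0.0149), and *H2-K1* at 9.70, 9.02 and 8.80 TPM against 5.55, 5.09 and 3.35 TPM (0.87, SE 0.155, limma adjusted p = 0.00254). *Tapbp* was at 27.1, 33.1 and 34.3 TPM against 51.7, 51.0 and 43.7 TPM (-0.62, SE 0.101, limma adjusted p = 0.00145), and *B2m* at 14.7, 13.2 and 10.2 TPM against 14.9, 19.6 and 15.1 TPM (-0.36, limma adjusted p = 0.0800). In all 4 genes the groups did not overlap, but the share of all genes without overlap is not given here, so nothing is read from that count. On the adjusted p alone, at 0.05, 3 of these 4 members passed, where 33.3% of 14473 genes did, and with the fold threshold 0 were (3.92% of genes). At an unadjusted p under 0.05 the count was 4, where 6351 of 14473 genes passed, so little can be read from it.

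Among the other lists in E13.5 male PGCs, interferon-stimulated genes had 3 of 14 lower and 0 higher past the thresholds, with a median of -0.45 against -0.02 for all genes. Of all genes, 3.92% were past the thresholds in either direction. *Ifi27* went from 189 to 87.3 TPM, *Ifi35* from 12.3 to 4.18 TPM and *Isg15* from 5.49 to 1.65 TPM (limma adjusted p = 6.90e-07, 3.07e-04 and 5.34e-04). Steroidogenic markers fell in the same libraries, *Cyp17a1* from 7.74 to 0.270 TPM and *Cyp11a1* from 7.66 to 0.228 TPM, and the sum of the 12 interstitial markers was 5.36 to 8.39 TPM against 31.0 to 37.1 TPM in controls. *Coro1a*, a leukocyte marker, fell from 13.3 to 3.16 TPM. The part of carried-over somatic cells in these values was not tested.

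At E12.5 the classical chains lay on opposite sides of their controls, and neither passed a threshold. *H2-D1* entered this comparison through the controls alone, so its direction was set by the filter. *H2-D1* was at 0.249, 1.05 and 1.02 TPM after IUHG against 2.08, 2.85 and 1.31 TPM (log2 -0.80, limma adjusted p = 0.226), and *H2-K1* at 5.32, 8.63 and 6.79 TPM against 4.38, 3.93 and 4.70 TPM (0.55, limma adjusted p = 0.229). *B2m* was at 5.21, 5.62 and 6.31 TPM against 8.81, 11.9 and 6.52 TPM (-0.55, limma adjusted p = 0.251). The groups did not overlap in these 3 genes, a count without the share of all genes beside it, from which nothing is read. *Tapbp* overlapped, at 46.7 ± 5.38 against 43.8 ± 2.03 TPM. Of 5 members tested, 0 were past the thresholds (0.247% of 13770 genes) or at an adjusted p under 0.05 (1.58%). An unadjusted p under 0.05 was found for 3, and for 2160 of 13770 genes. The interstitial marker sum was 2.26 to 3.21 TPM in IUHG and 10.1 to 11.5 TPM in control E12.5 PGCs, and its part was not tested.

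At E16.5 IUHG female PGCs had more *H2-D1* and *H2-K1* than their controls. *H2-D1* was at 1170, 1192 and 1194 TPM against 646, 661 and 760 TPM, 1.72 times higher (log2 0.79, SE 0.0751, limma adjusted p = 0.00109). *H2-K1* was at 545, 518 and 535 TPM against 381, 365 and 438 TPM, 1.35 times higher (0.44, SE 0.0864, limma adjusted p = 0.0238). Neither gene reached the fold threshold, and *H2-K1* also missed the limit for the adjusted p. *B2m* was at 137, 81.6 and 107 TPM and overlapped its controls (0.37, limma adjusted p = 0.256). *Tap1* spread over 5.20, 0 and 1.82 TPM. *Tap2* was at 1.48, 1.41 and 0.982 TPM against 0, 0.880 and 0.251 TPM, without overlap (0.78, SE 0.426, limma adjusted p = 0.301). *Tapbp* at 5.04, 14.7 and 11.8 TPM (-0.40) and *H2-T23* at 0, 6.59 and 3.12 TPM (0.48) overlapped their controls. *Psmb9* was at 0.897, 0.591 and 1.12 TPM against 1.87, 1.69 and 3.32 TPM (-0.79, limma adjusted p = 0.258). *Tap2* entered through IUHG alone and *Psmb9* through the controls alone, so the filter set the direction of both. *Psmb8* was listed at 0 in all 3 IUHG libraries and at 1.26, 0.352 and 1.29 TPM in controls, below the filter. Of 8 members tested, 0 were past the thresholds (0.736% of 18753 genes) and 2 had an adjusted p under 0.05 (5.64%). The number was the same at an unadjusted p under 0.05, where 4273 of 18753 genes passed.

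Of 12 further heavy chains tested, 1, *H2-Q4*, passed in E16.5 female PGCs, where 0.736% of all genes did. It was at 25.7, 25.6 and 22.1 TPM against 9.06, 7.62 and 10.4 TPM (log2 1.35, SE 0.209, limma adjusted p = 0.00866). The germ cell markers *Dppa3* and *Kit* fell, from 221 to 8.94 TPM and from 48.8 to 13.8 TPM (limma adjusted p = 0.00109 and 0.00838). They were the 2 past the thresholds among 9 germ cell markers tested. Of these 9, 6 were fitted lower and 3 higher, with a median of -0.31. The interstitial marker sum was 99.5 to 153 TPM in IUHG and 31.7 to 83.3 TPM in control E16.5 female PGCs, and the blood and immune sum 26.6 to 318 and 54.3 to 179 TPM. Their part in the *H2-D1* value was not tested.

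In E16.5 male PGCs, *H2-D1* was lower and *H2-K1* higher after IUHG, both short of the thresholds. *H2-D1* was at 61.8, 54.1 and 46.5 TPM against 68.3, 65.3 and 70.2 TPM (log2 -0.33, SE 0.104, limma adjusted p = 0.0946), and *H2-K1* at 23.1, 23.7 and 18.9 TPM against 14.6, 18.4 and 14.5 TPM (0.44, SE 0.133, limma adjusted p = 0.0830). *B2m* was at 108, 122 and 119 TPM against 150, 127 and 123 TPM (-0.19). *Tap2* was at 5.14, 4.54 and 4.92 TPM against 5.21, 5.40 and 6.52 TPM (-0.19), and *Tap1*, *Psmb8*, *Psmb9*, *Nlrc5*, *Tapbp* and *H2-T23* overlapped. All 10 members were tested, and 0 were past the thresholds (0.201% of 20945 genes) or at an adjusted p under 0.05 (5.93%). An unadjusted p under 0.05 was found for 3, and for 5003 of 20945 genes. The blood and immune sum was 260 to 493 TPM against 533 to 827 TPM in controls, with *Fcer1g* at 123 against 168 TPM, and its part was not tested.

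**Figure D4:**
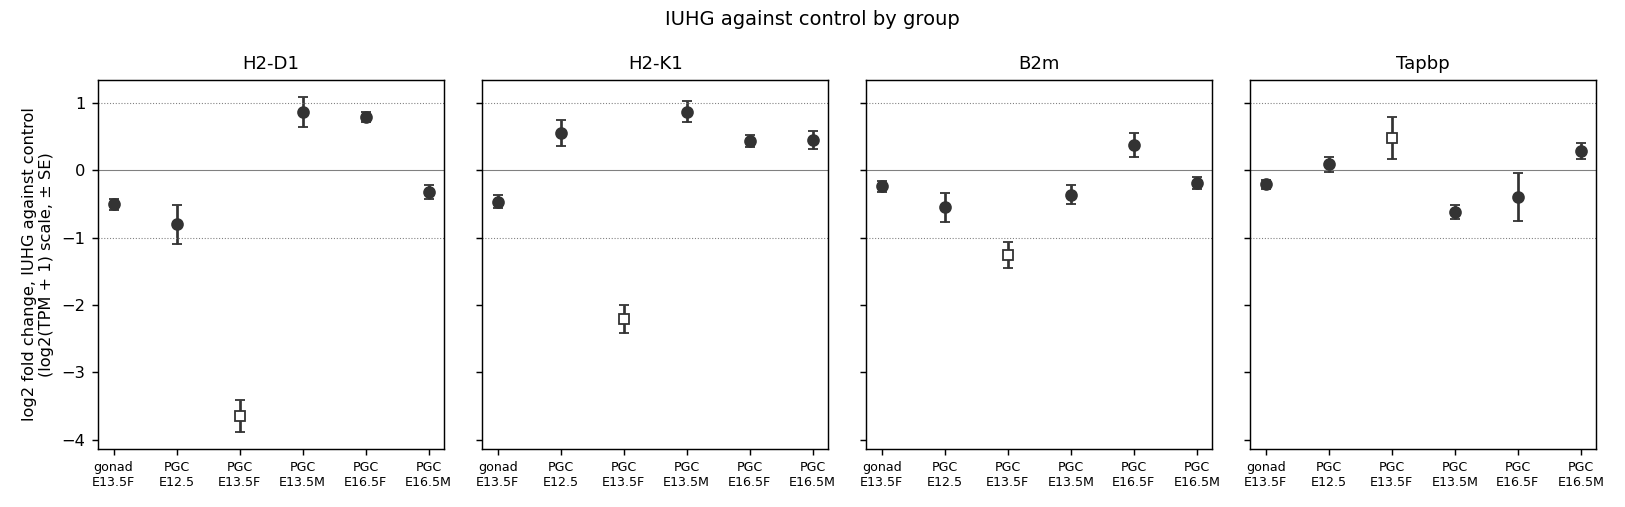
Difference between IUHG and control on the log2(TPM + 1) scale, with its standard error, for H2-D1, H2-K1, B2m and Tapbp in gonads and each PGC group. Dotted lines mark the fold threshold of 1, and open squares the E13.5 female comparison, which was not tested. H2-D1 lies at -3.65 in E13.5 female PGCs and at 0.87 and 0.79 in E13.5 male and E16.5 female PGCs.

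The IUHG effect on *H2-D1* differed between the sexes at E16.5. The male effect minus the female effect was -1.12 (SE 0.136, limma adjusted p = 0.00119), and it was the only 1 of 10 members past the threshold (1.18% of 24051 genes). It ran from -1.21 to -1.01 on leaving out each library, and its call was lost with all PGC groups in one fit, which called *Psmb8* instead (1.39). For *H2-K1* the same difference was 0.01. Between stages in males, E16.5 minus E13.5, *H2-D1* differed by -1.20 (SE 0.260, limma adjusted p = 0.00727) and *Tapbp* by 0.90 (SE 0.172, limma adjusted p = 0.00333), 2 of 10 members, where 8.29% of 21712 genes did. Only 1 or 0 members were left with a pseudocount of 0.1, without a filter, with median-of-ratios scaling, with all PGC groups in one fit and without any 1 of 9 libraries. The share of higher calls among all genes was 59.6% on TPM and 43.3% with median-of-ratios scaling.

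In E13.5 female gonads, where germ cells are a minority, the classical chains and *B2m* were at lower levels after IUHG. None reached the fold threshold, and *H2-K1* and *B2m* also missed the limit for the adjusted p. *H2-D1* was at 32.2, 28.8 and 29.3 TPM after IUHG against 41.3, 48.6 and 40.1 TPM (log2 -0.51, SE 0.0874, limma adjusted p = 0.0295), *H2-K1* at 24.8, 20.0 and 20.2 TPM against 27.7, 30.5 and 32.6 TPM (-0.47, limma adjusted p = 0.0559), and *B2m* at 129, 155 and 158 TPM against 178, 162 and 182 TPM (-0.24, limma adjusted p = 0.162). *H2-T23* leaned the other way, at 5.69, 3.34 and 7.11 TPM against 1.79, 2.65 and 2.51 TPM (0.91, limma adjusted p = 0.0899). In these 4 genes and in *Tapbp* the groups did not overlap. The share of all genes without overlap is not given for the gonads, so nothing is read from that count. The gonad thresholds were an adjusted p under 0.05 and a log2 fold change of at least 1. Of 8 members tested, 0 were past them (0.612% of 18150 genes) and 1 had an adjusted p under 0.05 (2.47%). An unadjusted p under 0.05 was found for 5, and for 3607 of 18150 genes. Without control 1, the library with Y-linked transcripts, *H2-D1* was at -0.54, *H2-K1* at -0.53, *B2m* at -0.22 and *H2-T23* at 0.79.

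The same gonads had fewer blood and interstitial and more germ cell transcripts. The blood and immune sum was 10710 to 12169 TPM after IUHG against 13872 to 17141 TPM, the interstitial sum 2414 to 2601 against 3268 to 3720 TPM, and the germ cell sum 740 to 909 against 563 to 638 TPM, and their part in the class I values was not tested. Of the other pathway genes, *H2-Bl* was higher (3.83 against 1.06 TPM, limma adjusted p = 0.0353). *Raet1d*, a ligand of the natural killer receptor NKG2D, was listed at 0, 0.146 and 0.280 TPM against 10.1, 9.73 and 11.7 TPM. Of 4 NKG2D ligand genes tested in the gonads, 2 were lower and 1 higher past the thresholds (0.612% of all genes were past them). Through the controls alone entered 2 of the 4. In E13.5 female PGCs *Raet1d* was at 30.6, 38.9 and 26.9 TPM against 54.2, 48.6 and 40.8 TPM.

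Taking 21 class I heavy chain genes together shows how much of the class I message the members held. Their summed level was 287 ± 7.65 TPM (SD, n = 3) in control and 54.0 ± 6.99 TPM in IUHG E13.5 female PGCs, and 1136 ± 106 and 1812 ± 9.95 TPM in E16.5 female PGCs. In E16.5 male PGCs it was 140 ± 5.27 and 130 ± 11.7 TPM, in E12.5 PGCs 13.9 ± 0.676 and 18.6 ± 1.53 TPM, and in E13.5 male PGCs 13.6 ± 1.08 and 20.9 ± 1.42 TPM. *H2-D1* and *H2-K1* made up 95.2% to 95.6% of it in control E16.5 females and 86.0% to 88.4% in control E13.5 females. After IUHG in E13.5 females they made up 61.4% to 75.1%, so other heavy chains held a larger share of a smaller sum. In E16.5 males the pair held 58.1% to 61.9% in controls.

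The balance between the classical chains also differed by group. *H2-D1* over *H2-K1* had a median of 0.834 in control E13.5 females and 0.303 after IUHG, with ranges of 0.800 to 0.872 and 0.228 to 0.329. In E16.5 females it was 1.74 in controls and 2.23 after IUHG, and in E16.5 males 4.66 and 2.46, again without overlap. In gonads it was 1.49 and 1.44. These genes share sequence, which bears on any such ratio. Of 2053 windows of 50 bases in the longest *H2-D1* transcript of the mm9 annotation, 294 (14.3%) also occurred in other genes, led by *H2-Q2*, *H2-Q7* and *H2-Q6*. For *H2-K1* it was 8.87%, led by *H2-D1*, and for *H2-T23* 14.8%, while *B2m*, *Psmb8* and *Psmb9* had none. By the study's methods reads of the PGC libraries that mapped to several places were removed, so such reads are missing from their levels. The windows are shorter than the study's reads, so how many reads were lost was not measured. For the gonads the handling of such reads is not given in the sources used here. Class I heavy chains vary between mouse strains and ICR mice are outbred, and the part of haplotypes in these values was not tested.

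The genes whose pattern was most like that of the members over the 30 PGC libraries were found among 15118 genes by Pearson's r of log2(TPM + 1), as a description over libraries that share stages and conditions. For *H2-D1* they were *Mei1* (r = 0.993), *Stk33* (0.985) and *Zcwpw1* (0.985). For *H2-K1* they were *Majin* (0.991), *4930524B15Rik* (0.985) and *Spdya* (0.984), and for *B2m* *Tspan33* (0.972), *Rnf130* (0.972) and *Tcf24* (0.969). *Mei1* was at 14.6 ± 2.26 TPM in control and 1.38 ± 0.706 TPM in IUHG E13.5 females, and at 49.9 ± 10.4 and 60.1 ± 2.26 TPM at E16.5. *Majin* was at 74.4 ± 3.93 and 13.1 ± 2.86 TPM, and at 160 ± 12.0 and 234 ± 22.7 TPM. *Mei1*, *Majin* and *Zcwpw1* are known as meiosis genes. Among the members, *H2-D1* and *H2-K1* had r = 0.93, *H2-D1* and *B2m* 0.86, *H2-K1* and *B2m* 0.69, and *Tap1* and *Psmb9* 0.89. *H2-D1* and the class II gene *H2-Ab1* had 0.97.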

How the data were processed

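RNA-seq libraries of E13.5 female gonads and of PGCs sorted at 3 stages were compared, 3 per group. The authors aligned gonad reads with HISAT2 to mm9 by their methods and PGC reads with STAR to mm39, keeping uniquely mapped reads, both after trimming with Trim Galore. The labels name STAR and mm39 for the gonads too, and gonad coordinates were not used. The authors deposited gene tables in StringTie's layout with TPM, FPKM and coverage per gene. Deposited TPM values scale each library to a fixed total and correct for transcript length, so a few abundant genes can shift all others. The FPKM values deposited by the authors served as an alternative, and the deposited coverage gave aligned bases per library (coverage times length). The tables used here hold no read counts, so the count models of the study (featureCounts and DESeq2) were not repeated and no counting interval is given.

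TPM of rows sharing a gene ID were summed, and log2(TPM + 1) was tested with limma 3.58.1 (R 4.3.3) over all genes that reached a mean of 1 TPM in 1 or more compared groups, with Benjamini-Hochberg adjustment. A pseudocount of 1 understates changes of low genes. Thresholds followed the study, with its p for PGCs taken as adjusted: for gonads adjusted p under 0.05 and a log2 fold change of 1 or more, adjusted p under 0.01 and a log2 fold change beyond 1 in PGCs. Differences between effects were called at an adjusted p under 0.01. An exact permutation test of 3 against 3 libraries cannot go below p = 0.1 and was not used. The labels do not say that libraries of a group came from separate litters, so p-values measure the spread between these libraries, which may in part be technical. Sequence windows, motifs and shared windows were computed with Python 3.11.15.

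Named were all 10 members, up to 3 genes per list and comparison with the lowest p among called genes without overlap (in E13.5 females those with the largest difference, at a mean of at least 5 TPM), the 3 tested neighbours on each side of *H2-D1* and *H2-K1*, and the 3 genes most like *H2-D1*, *H2-K1* and *B2m*. Marker genes, and genes followed over several stages, were named beside them. Members and lists were chosen with earlier results of these data known. On simulated data limma recovered 54.5% of 200 changed genes in E13.5 females and 71% in E16.5 females. Alternatives were FPKM, another pseudocount, no filter, median-of-ratios scaling, a replicate block, all PGC groups in one fit and leaving out each library. Some results are not reported here.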

Additional observations from a re-analysis of the deposited data

Results flagged for a closer look

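For 3 results the effect of IUHG differed between groups by a test of the difference, but none kept its call under every alternative. *H2-D1* had an E16.5 male effect minus E16.5 female effect of -1.12 on the log2(TPM + 1) scale (limma adjusted p = 0.00119). It was lower after IUHG in 3 of 3 male libraries and higher in 3 of 3 female libraries. Its call was lost with all PGC groups in one fit, and 1.18% of all genes passed that test. The E16.5 male effect minus the E13.5 male effect was -1.20 for *H2-D1* (limma adjusted p = 0.00727) and 0.90 for *Tapbp* (limma adjusted p = 0.00333). Both lost their calls without a filter and with all PGC groups in one fit, and 8.29% of all genes passed there.

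For other pairs of groups every IUHG library lay on one side of its controls in one group and on the opposite side in the other, and these differences were not tested. *H2-D1* was at -3.65 in E13.5 females against 0.87 in E13.5 males and 0.79 in E16.5 females. It was also at -0.80 in E12.5 PGCs, a direction set by the filter, against 0.87 in E13.5 males. *H2-K1* was at -2.21 in E13.5 females against 0.55 in E12.5 PGCs, 0.87 in E13.5 males and 0.44 in E16.5 females. The first value of each gene comes from the comparison that led to the choice of these genes.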

How the results depend on the processing

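Among the called results, no member changed direction under the alternatives that were run. Outside the counts of members, 1288 values kept their side of the threshold or stayed within the replicate spread, 52 moved by more, 5 gained and 29 lost a call. The *H2-D1* difference in E13.5 females ran from -3.86 to -3.52 on leaving out each library. On the adjusted p alone, at 0.05, the count of members past the threshold was 1 in gonads, 3 in E13.5 males, 2 in E16.5 females, 1 from E12.5 to E13.5 males (each 0 with the thresholds), and 4 in place of 2 from E13.5 to E16.5 females. Both of the last counts include *H2-D1*, whose values chose the set. In the same order, 449 of 18150, 4813 of 14473, 1058 of 18753, 8844 of 14531 and 9679 of 17988 genes passed at 0.05. From E12.5 to E13.5 males, leaving out each library gave 0 to 1, with 1 without E12.5 control 2 (*B2m* at 1.02). Between stages in males the count of 2 became 1 with a pseudocount of 0.1, 0 without a filter, 1 with median-of-ratios scaling, 0 with all PGC groups in one fit, and 0 to 2 on leaving out each library. It was 0 without E16.5 control 3 and 1 without E16.5 control 1 or 2, E16.5 IUHG 2 or 3, E13.5 control 2 or any E13.5 IUHG library. Why these counts moved was not tested. Without read counts, the counting error of genes below a few TPM, such as *Tap2*, *Psmb8* and *Nlrc5*, is unknown.

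Replicate numbers of the labels did not pair libraries (correlations of deviations from -0.0846 to 0.126, with no comparison in which all 3 exceeded 0.1). With the number as a replicate block, *H2-D1* in E13.5 females was at -3.65, and the count of members called was 6 in place of 7 between sexes at E16.5, where *Tap1* lost its call. The other counts of calls were the same with the block.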
